A study of Arabidopsis thaliana with 18 samples.

Results

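Induced seedlings were compared between times: 3 arrays of plants taken 12 h after treatment began and 3 arrays of plants taken at 6 h, 6 of the 18 arrays of the study. All 22746 probe sets of the ATH1 array that are not Affymetrix controls were members, of 22810 in the table, so no member was chosen by its value. The plants were whole Arabidopsis thaliana seedlings of background Col-0 carrying pMDC7DUO1, which the labels give as a T-DNA mutation. They had been kept for 3 days at 4 °C and grown for 12 days in constant light at 22 °C with hygromycin and no carbon source. The groups used here were induced plants at 12 h, induced plants at 6 h, not induced plants at 12 h and not induced plants at 6 h, 3 arrays each. Arrays at 24 h were used for levels only, besides entering the shared estimate of spread. All groups carried the construct, the labels do not name the inducer, and no group had the treatment without the construct.

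DUO1 is a MYB transcription factor that is normally made in the male germline of pollen, where it switches on genes of the sperm cells such as the histone H3 gene MGH3. pMDC7 is an oestradiol-inducible vector, so that induction in a seedling puts the factor into cells that do not normally hold it. A later time can show transcripts that build up slowly, responses of other genes to the first ones, and changes that plants on the plate go through anyway. The not induced plants of the same times show the last of these, together with differences between their arrays. The annotation names no probe set for DUO1, whose own transcript was not analysed here.

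Values are MAS5 signals, a linear measure of brightness, and each is given for 1 array. A probe set was called when its adjusted p was under 0.05 in limma, fitted over all 18 arrays. A signal was at background when it did not exceed the highest of the 27 Bacillus control probe sets of its array. Median signals lay between 34.3 and 39.5 over the 18 arrays. RCA, a chloroplast protein of leaves, had 4841, 5131 and 4944 in induced plants at 12 h, and PYK10, a beta-glucosidase of root ER bodies, had 3433, 3948 and 4092, so leaf and root transcripts were both present. In whole seedlings, fewer cells of a type and less RNA per cell cannot be told apart.

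The arrays of the 2 times also differed in array measures. The ratio of 3′ to 5′ actin signals was 3.35, 3.14 and 3.66 at 12 h, against 2.11, 2.58 and 3.04 at 6 h, without overlap. Induced 6 h replicate 1 stood apart from the other induced 6 h arrays. Its background level was 10.1, against 5.35 and 3.3, and its 25S rRNA signal was 2013, against 550 and 233. Its correlation with the other arrays of its group was 0.977 and 0.975, and theirs with each other was 0.988, across the brighter probe sets of these arrays. Among the induced 12 h arrays, replicate 3 had a 25S rRNA signal of 1874, against 730 and 629. The part of the actin ratio in the results was not tested beyond a fit with it as a covariate, which left 96 calls where 431 were made without it. This covariate was chosen after seeing the data, and it did not overlap between the compared times.

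**Figure D1:**
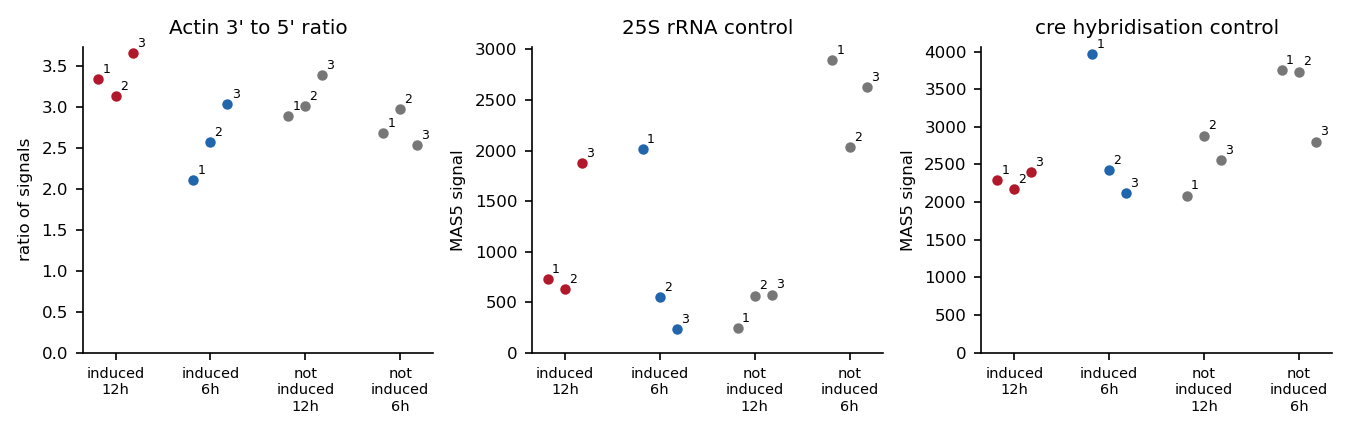
Actin 3′ to 5′ signal ratio, 25S rRNA signal and cre hybridisation control signal by array (points, numbered by replicate) in induced and not induced plants at 12 h and 6 h. Actin ratios were 3.14 to 3.66 in induced plants at 12 h and 2.11 to 3.04 in induced plants at 6 h, and induced 6 h replicate 1 had the highest 25S rRNA signal of its group.

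The first question was which transcripts differed between 12 h and 6 h in induced plants. F6'H1 (AT3G13610), which makes the precursor of the coumarin scopoletin, and the glutathione transferase gene GSTU22 fell by 1.68 and 1.26 on the log2 scale. The sugar transporter gene SWEET2, the cell wall genes TBL26 and PRX72, and the calreticulin gene CRT1b fell as well. The carboxypeptidase-like gene scpl48 and the ethylene receptor regulator RTE1 rose. AT3G22240, the brightest of the 15 largest rises, reached signals of 2364 to 3520 at 12 h.

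In all, 431 probe sets were called, 1.89% of those tested, of which 188 rose (0.827%) and 243 fell (1.07%). At an unadjusted p under 0.05 there were 3328. Changes were modest: the median absolute log2 change of the called probe sets was 0.67, and 41 rose and 64 fell by at least 2-fold. The median log2 change of all probe sets was 0.03. The 12 h and 6 h arrays did not overlap for 427 of the 431 and for 19.7% of all probe sets. Of the 431, 172 had 1 gene in the annotation, 9 had several and 250 had none. Most calls fell on the brighter probe sets, with 374 in the brighter and 57 in the dimmer part when cut at the median signal (3.29% and 0.501%). With each array set to 1 median, 122 rose and 326 fell, so 27.2% of calls rose in place of 43.6%. Without induced 12 h replicate 2 there were 149 calls, without induced 12 h replicate 3 there were 190, and without induced 6 h replicate 1 and replicate 2 there were 193 and 258. All 431 kept their sign without induced 6 h replicate 1.

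Among the largest falls, F6'H1 had 55.5, 52.6 and 76.2 at 12 h, against 183, 242 and 164 at 6 h. The groups stood far apart, and the log2 change was -1.68 ± 0.16 (SE, limma, adjusted p = 1.24e-05). GSTU22, a tau class enzyme that joins glutathione to foreign and reactive compounds, had 62.8, 58.7 and 78.2 at 12 h, against 179, 165 and 134 at 6 h. Its log2 change was -1.26 ± 0.12 (limma, adjusted p = 2.28e-05). AT5G48430 had 16.0, 10.9 and 22.7 at 12 h, against 67.5, 70.9 and 46.3 at 6 h, and fell by 1.94 on the log2 scale. At 24 h it had 4.84, 5.03 and 7.03, at background on 2 of 3 arrays. AT4G17470 had 174, 193 and 124 at 12 h, against 353, 495 and 554 at 6 h (log2 change -1.51). AT3G16530 had 117, 142 and 144 at 12 h, against 472, 325 and 330 at 6 h (log2 change -1.47). For these 5 genes each call held whichever array was left out. That the 2 times did not overlap was required by the choice of genes.

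AT5G40590 was at background on all 3 arrays at 12 h, with 1.32, 3.22 and 4.64, against 13.9, 13.5 and 9.66 at 6 h. It was at least 2.2-fold lower. At 24 h its signals were 12.6, 15.4 and 27.7, so the 12 h signals were the lowest of the 3 times. AT1G31690 had 17.3, 24.8 and 19.4 at 12 h, against 56.4, 44.6 and 58.9 at 6 h (log2 change -1.39). Its signals at 24 h, 63.0, 62.6 and 59.9, were above both. The other large falls were AT1G10585, AT3G59340, AT5G51440, AT1G19020, AT2G38240, AT3G01190, AT1G30700 and AT2G34930, with log2 changes between -1.92 and -1.28. Of these 8, AT1G30700 and AT2G34930 kept their call whichever array was left out.

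Among the largest rises, AT3G60780 had 24.4, 22.4 and 19.3 at 12 h, against 7.21, 1.06 and 0.778 at 6 h, where it was at background on all 3 arrays. It was at least 3.90-fold higher (limma, adjusted p = 0.0166). AT4G21020 had 92.6, 95.4 and 86.2 at 12 h, against 2.41, 20.5 and 13.0 at 6 h, and was at background on 1 of 3 arrays at 6 h. AT5G37450 had 78.1, 106 and 102 at 12 h, against 16.4 to 23.1 at 6 h. These 3 genes were separated between the times, which the choice of genes required. Of the fits without 1 array, 5 of 6, 5 of 6 and 6 of 6 lost their call (limma, adjusted p = 0.0424 for AT4G21020 and 0.041 for AT5G37450 with all arrays). In not induced plants AT3G60780 was at background on all arrays at both times.

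AT1G19960 had the lowest adjusted p of the 15 largest rises. Its signals were 283, 194 and 199 at 12 h, against 51.7, 92.7 and 86.5 at 6 h (log2 change 1.57 ± 0.19 SE, limma, adjusted p = 0.000246). AT5G40960 had 149, 148 and 147 at 12 h, against 60.3, 60.2 and 69.4 at 6 h (log2 change 1.23). Both calls held in all alternatives run. AT3G22240 had 3520, 2364 and 2886 at 12 h, against 639, 1619 and 1122 at 6 h (log2 change 1.46), and AT1G47400 had 119, 191 and 170 against 49.3, 47.8 and 68.8 (log2 change 1.52). AT5G03350, AT1G01240, AT2G37870, AT5G43520, AT2G38905 and AT4G12490 rose by 1.15 to 1.49 on the log2 scale, and of these 6 AT2G37870 kept its call whichever array was left out. AT1G04390 had 13.9, 21.1 and 10.6 at 12 h, against 1.04, 3.19 and 3.43 at 6 h, at background on 2 of 3 arrays at 6 h. Its call was lost in 12 of 16 alternatives, among them 5 of 6 fits without 1 array. In not induced plants AT1G04390 had 11.6, 6.93 and 12.0 at 12 h, against 14.3, 11.7 and 12.9 at 6 h.

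**Figure D2:**
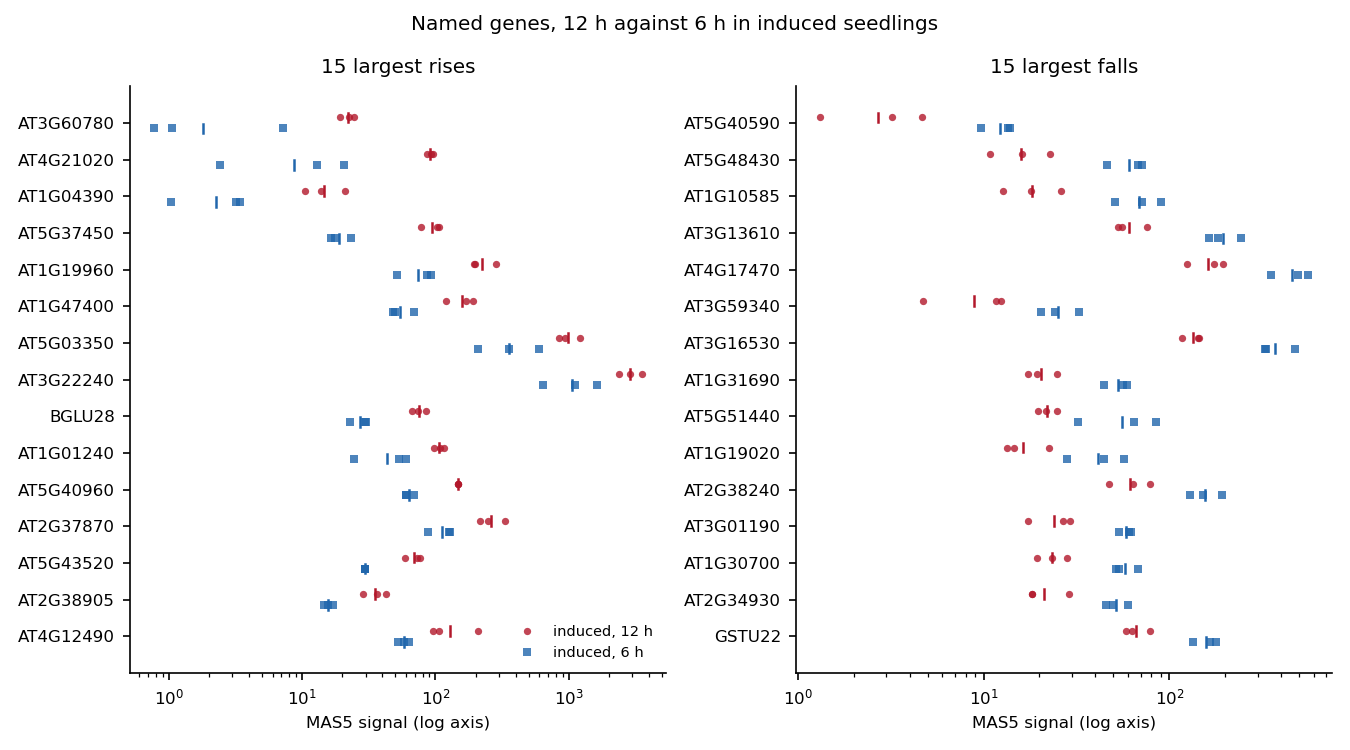
MAS5 signal (log axis) of the 15 largest rises and 15 largest falls among called genes, by array, in induced plants at 12 h (red circles) and 6 h (blue squares); bars mark geometric means. The 2 times do not overlap for any of the 30 genes, which the choice of genes required.

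Some of the largest called changes lay on probe sets without a gene in the annotation. Probe set 251252_at had 136, 145 and 107 at 12 h, against 4.62, 17.8 and 3.38 at 6 h. At 24 h it had 472, 381 and 667. Probe set 254550_at had 0.760, 3.12 and 0.412 at 12 h, at background on all arrays, against 13.5, 27.9 and 16.8 at 6 h, and was at least 3.33-fold lower.

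Of the called probe sets, 30 had 1 gene with a name beyond its locus tag, 14 rises and 16 falls. They are described in full and ordered by what the genes are known for, a choice made after their values were seen. The groups are therefore no evidence of a shared change. Each count of called members below stands beside 0.827% rises and 1.07% falls over all probe sets. At an unadjusted p under 0.05 there were 3328 of 22746. Counts for gene lists and families cover the members that the annotation names: 119 of 905 list entries matched a probe set, and a member without a match was not analysed here.

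The falls included 2 peroxidase genes and TBL26. PRX71 (AT5G64120), a secreted peroxidase, had 58.9, 51.4 and 53.1 at 12 h, against 147, 110 and 133 at 6 h (log2 change -1.25). PRX72 (AT5G66390), a peroxidase that acts in lignin formation, had 15.9, 18.3 and 24.0 at 12 h, against 50.5, 48.1 and 33.7 at 6 h (log2 change -1.18). TBL26, of a family that adds acetyl groups to wall polysaccharides, had 275, 172 and 208 at 12 h, against 525, 532 and 468 at 6 h (log2 change -1.25). All 3 calls held whichever array was left out. Of the 22 TBL genes measured, TBL26 was called and 21 were not, with a family median log2 change of 0.09.

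Of 6 detoxification genes, GSTU22 and GSTU25 fell, 0 rose and 4 were not called, and the list median was -0.44. GSTU25 had 161, 132 and 167 at 12 h, against 238, 271 and 200 at 6 h (log2 change -0.62). Of the 14 glutathione transferase genes measured, these 2 fell and the family median was 0.06. MDAR2, annotated as ATMDAR2, a monodehydroascorbate reductase that regenerates ascorbate, fell by 0.39 (adjusted p = 0.0389 in limma).

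NAI2, CRT1b and 2 of 4 measured JAL lectin genes were also called falls. NAI2, needed to form ER bodies, had 437, 437 and 515 at 12 h, against 628, 720 and 742 at 6 h (log2 change -0.59). JAL34, a carbohydrate-binding lectin of the jacalin type, had 748, 806 and 816 at 12 h, against 1102, 1315 and 1367 at 6 h (log2 change -0.67). JAL23, of the same family, fell by 0.93. Of 4 JAL genes measured 2 fell and 2 were not called, with a median of -0.52. Among 3 root markers NAI2 fell, and PYK10 and JAL22 had log2 changes of -0.01 and 0.03. CRT1b, a calcium-binding chaperone, had 617, 586 and 630 at 12 h, against 952, 940 and 816 at 6 h (log2 change -0.56). A separate list of 4 genes of protein stress in the endoplasmic reticulum, which did not hold these, had 0 calls by limma, 1 at an unadjusted p under 0.05 and a median of -0.09.

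In sugar transport, SWEET2, a transporter of the vacuole membrane, had 50.2, 56.9 and 51.2 at 12 h, against 97.1, 86.5 and 109 at 6 h (log2 change -0.88). SWEET17, a fructose transporter of the vacuole, had 169, 208 and 222 at 12 h, against 300, 319 and 259 at 6 h (log2 change -0.56). Of 14 SWEET genes measured these 2 fell, and the family median was -0.10. IAGLU, which joins glucose to the auxin indole-3-acetic acid, fell by 0.63, PRN, a pirin, fell by 0.87, and the RNA helicase gene PRH75 fell by 0.39. Of these, the call of SWEET2 held whichever array was left out.

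Among the rises, 2 genes encoded ATG8 proteins, ubiquitin-like proteins of the membrane that engulfs cell contents in autophagy. ATG8H had 197, 177 and 185 at 12 h, against 80.2, 92.9 and 128 at 6 h (log2 change 0.92 ± 0.21 SE, limma, adjusted p = 0.0233). APG8A, also known as ATG8A, had 190, 197 and 212 at 12 h, against 112, 137 and 152 at 6 h (log2 change 0.59). Of 10 autophagy genes measured 2 rose, 0 fell and 8 were not called, with a median of 0.40 and 6 at an unadjusted p under 0.05. Both calls were lost in fits without 1 array, 5 of 6 for ATG8H and 4 of 6 for APG8A. scpl48 and scpl26, carboxypeptidase-like genes, of a family of secreted and vacuolar enzymes, were called. The signals of scpl48 were 467, 536 and 545 at 12 h, against 273, 303 and 299 at 6 h (log2 change 0.82 ± 0.11 SE, limma, adjusted p = 0.000549), and scpl26 rose by 0.42. Of 29 SCPL genes measured these 2 rose.

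AUR2, a mitotic kinase that acts in cell division, had 102, 111 and 87.1 at 12 h, against 62.2, 59.4 and 62.9 at 6 h (log2 change 0.70 ± 0.13 SE, limma, adjusted p = 0.00629). Its relatives AUR1 and AUR3 had log2 changes of 0.40 and 0.70 and were not called (limma, adjusted p = 0.0861 and 0.169). The list of late cell cycle genes matched 4 of 35 entries, these 3 and BUBR1, a gene of the spindle checkpoint (log2 change 0.58, not called), so its count adds 1 gene to those above. ATRX, a chromatin remodelling factor, had 110, 107 and 94.5 at 12 h, against 52.2, 70.7 and 68.4 at 6 h (log2 change 0.72).

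RTE1, which activates the ethylene receptor ETR1, had 85.7, 113 and 97.3 at 12 h, against 52.1, 52.3 and 42.6 at 6 h (log2 change 1.01 ± 0.18 SE, limma, adjusted p = 0.00484). GI, a gene of the circadian clock and of flowering time, had 101, 107 and 112 at 12 h, against 69.7, 74.6 and 65.2 at 6 h. Its log2 change of 0.62 lay at the threshold (limma, adjusted p = 0.0498), and leaving out any of the 6 arrays ended the call. GI was the 1 entry of 26 in the list of core clock genes that matched a named probe set, so the other entries were not analysed here. BGLU28, a beta-glucosidase of sulfur shortage, had 66.9, 84.5 and 74.3 at 12 h, against 22.7, 29.7 and 30.3 at 6 h (log2 change 1.46). Of 2 sulfur genes measured BGLU28 rose.

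The remaining rises were smaller. ZIP6, of a family of metal transporters, rose by 0.72, and CuAO1, a copper amine oxidase, rose by 0.59. DI21, named as drought-induced, rose by 0.59, ICDH, annotated as an isocitrate dehydrogenase, by 0.59, and MSRB9, which repairs oxidised methionine, by 0.52. Of 61 called genes followed through the alternatives, 24 kept their call whichever of the 6 arrays was left out, and 14 of these kept it in all alternatives run. The 14 were AT1G19960, AT2G34930, F6'H1, AT3G16530, AT4G17470, AT4G33550, AT5G40960, AT5G48430, PRX72, CRT1b, GSTU22, scpl48, SWEET2 and TBL26. The other 10 were AT1G30700, AT1G31690, AT1G47400, AT2G37870, AT3G22240, AT3G53980, PRX71, GSTU25, JAL34 and RTE1.

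**Figure D3:**
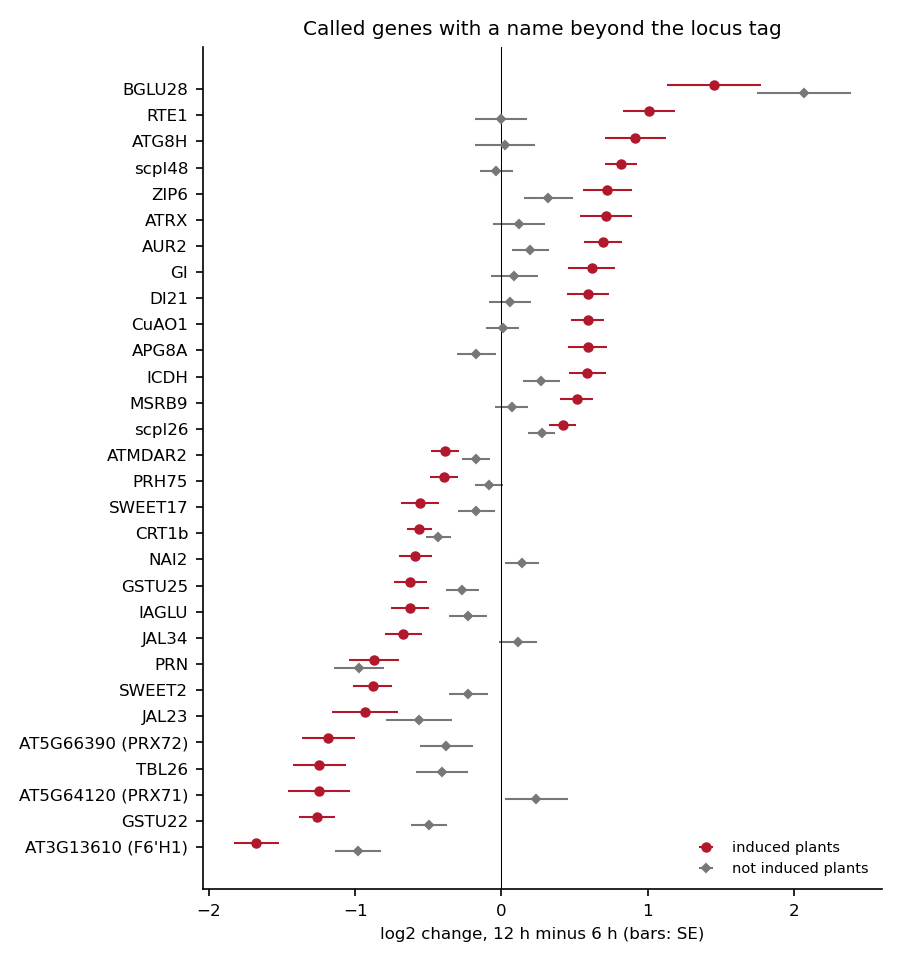
Log2 change, 12 h minus 6 h, with its SE, of the 30 called genes with a name beyond the locus tag, in induced plants (red) and not induced plants (grey). Induced changes ran from -1.68 for F6'H1 to 1.46 for BGLU28.

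The second question was what sperm cell genes, the known targets of DUO1, did between the times. MGH3, the histone H3 of sperm cells, had 435, 438 and 407 at 12 h, against 144, 187 and 202 at 6 h. At 24 h it had 563, 447 and 643. TET11, a tetraspanin gene, had 125, 153 and 145 at 12 h, against 31.4, 51.1 and 66.7 at 6 h. At 24 h it had 199, 176 and 204. For both genes 12 h and 6 h were fully separated. The log2 changes were 1.28 ± 0.60 and 1.57 ± 0.86 (SE), and neither was called over 18 arrays (limma, adjusted p = 0.328 and 0.42). In not induced plants MGH3 had 1.43, 6.04 and 1.02 at 12 h and 4.75, 0.750 and 1.28 at 6 h, so those arrays lay near or under background and entered the spread.

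Fitted on the 6 induced arrays alone, both genes were called (limma, adjusted p = 0.00104 for MGH3 and 0.00776 for TET11). Both were also called with signals raised to the background level (limma, adjusted p = 7.36e-05 and 0.00019) and with an offset of 16 before the log (0.000178 and 0.00108). In the other alternatives they stayed uncalled, 14 of 17 for MGH3 and 13 of 16 for TET11. The 6-array fit called 300 probe sets, of which 238 were among the 431 and 62 were not. Of these 62, 15 were at background on at least 5 of 9 not induced arrays. Of all probe sets, 75.5% to 81.7% were above background on a not induced array. This is a share per array, and the share of all probe sets at background on at least 5 of 9 is not given here. The count of 15 is therefore not read as a result about the 62. ATGP4 had 117, 124 and 129 at 12 h, against 77.4, 114 and 121 at 6 h, with overlapping groups. TET12 was at background on all 3 arrays at 12 h. Of the 4 sperm cell genes matched, from 21 list entries, 0 were called over 18 arrays by limma, with a median of 0.77 and 1 at an unadjusted p under 0.05. Of 9 genes of the pollen vegetative cell, 0 were called, 0 had an unadjusted p under 0.05 and the median was 0.12.

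**Figure D4:**
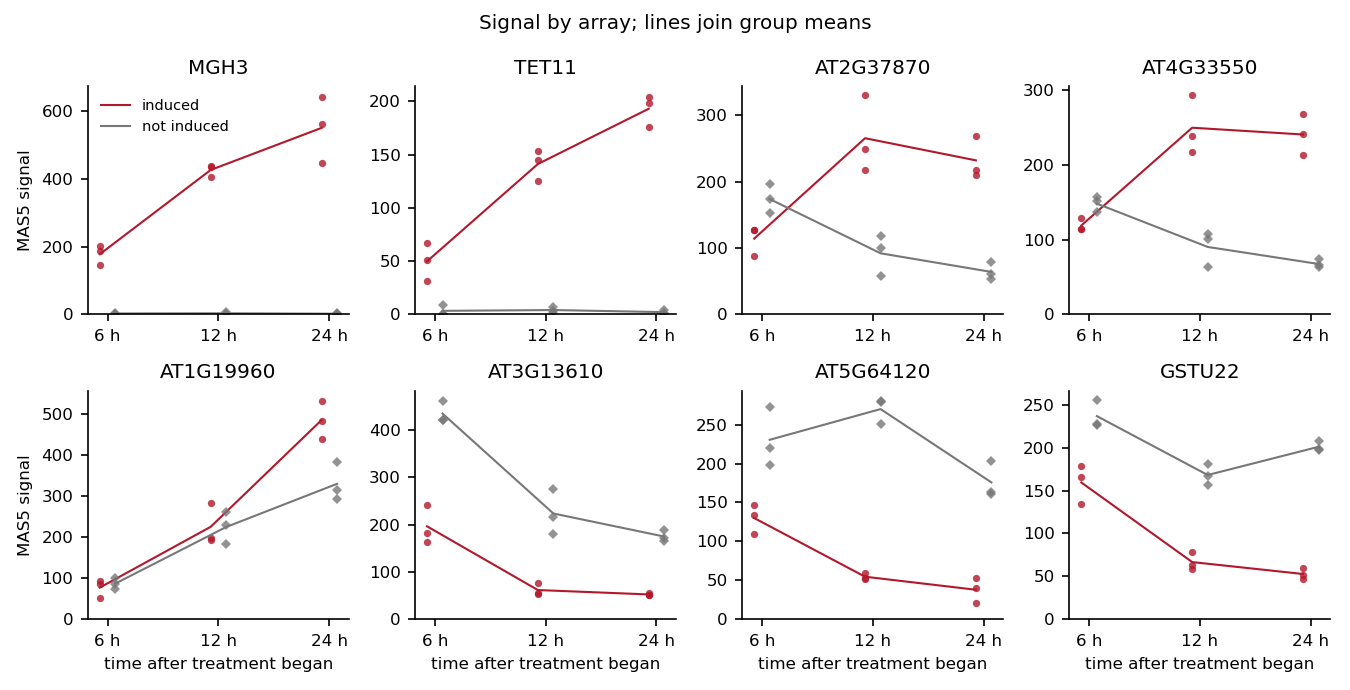
MAS5 signal by array (points) and group mean (lines) at 6 h, 12 h and 24 h in induced plants (red) and not induced plants (grey) for 8 genes; the times are evenly spaced. MGH3 had 407 to 438 at 12 h and 144 to 202 at 6 h in induced plants, and AT2G37870 and AT4G33550 were higher at 12 h than at 6 h in induced plants but lower in not induced plants.

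The third question was how far the change with time was shared by plants without induction. In these, 663 probe sets were called between 12 h and 6 h (2.91%), 328 rises and 335 falls. With each array set to 1 median the split was 213 and 454. The not induced arrays also differed between the times. Their 25S rRNA signals were 244, 564 and 573 at 12 h, against 2891, 2036 and 2626 at 6 h, without overlap. Fewer probe sets were called with hybridisation controls as a covariate, as given in the last section. The part of these array measures was not tested further. F6'H1 fell in both, with 275, 215 and 180 at 12 h, against 462, 421 and 421 at 6 h, in not induced plants (log2 change -0.98). GSTU22 was a called fall in both as well, with a log2 change of -0.49 in not induced plants (limma, adjusted p = 0.0355). BGLU28, AT1G19960, AT3G22240, AT1G47400 and AT4G12490 rose in both. CRT1b, PRN, AT4G17470, AT2G38240, AT2G34930, AT1G19020 and AT5G51440 fell in both.

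The 2 comparisons share no arrays. Of the probe sets called, 92 changed in the same direction in both, 30 rises and 62 falls, 21.3% of the calls in induced plants and 13.9% of those in not induced plants. Another 6 were called in opposite directions. They include AT4G09410, whose signals in the 4 groups were 0.132 to 4.67, above background on 1 induced 6 h array only. Among the 188 rises of induced plants, 144 were also positive in not induced plants, with a median log2 change of 0.66 in induced and 0.19 in not induced plants. Among the 243 falls, 193 were also negative, with medians of -0.70 and -0.31. Over all probe sets the median log2 change in not induced plants was 0.03. Both signs were thus common there, and for a given probe set a shared sign alone says little. The counts of shared signs were not tested. Across the brighter 11373 probe sets the 2 changes had a Pearson r of 0.36 and a Spearman rho of 0.32, a description over probe sets that share their arrays.

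The difference between the 2 changes was then tested directly, and 44 probe sets were called (0.193%, 2415 at an unadjusted p under 0.05), 34 with the more positive change in induced plants and 10 with the more negative. For 31 of the 44 the signal was higher at 12 h in induced plants and lower in not induced plants. Among the 34, 24 were called falls in not induced plants, 12 were called rises in induced plants, 5 were both and 3 were neither.

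AT4G33550 had 294, 238 and 217 at 12 h, against 114, 128 and 115 at 6 h, in induced plants. In not induced plants it had 108, 100 and 62.7 at 12 h, against 137, 156 and 152 at 6 h. The changes differed by 1.81 ± 0.22 (log2, SE, limma, adjusted p = 0.00137), and this call held in all alternatives run. AT2G37870 had 330, 249 and 217 against 87.4, 128 and 127 in induced plants, and 117, 101 and 57.8 against 152, 196 and 173 in not induced plants, a difference of 2.19 (limma, adjusted p = 0.00382). AT3G53980 had 620, 556 and 523 against 301, 309 and 312 in induced plants, and 263, 253 and 184 against 448, 376 and 342 in not induced plants, a difference of 1.62 (limma, adjusted p = 0.00242). AT4G35110, with a difference of 1.3, and AT2G23120, with 1.24, were also called in both with opposite signs. Their rises in induced plants lost the call in 5 of 6 and 6 of 6 fits without 1 array. AT2G23120 was named after its values were seen.

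Among the genes named by the rule, which required the brighter group to be above background, AT3G02480 and AT2G41190 had the largest differences, 3.31 and 2.79. For AT3G02480 the induced plants overlapped between times, with 210, 218 and 109 at 12 h and 145, 90.6 and 240 at 6 h. Its not induced plants had 40.3, 30.4 and 44.9 at 12 h and 151, 1000 and 224 at 6 h, so 1 of the 6 h arrays was far above the other 2. AT2G41190 had 171, 246 and 177 at 12 h, against 65.1, 77.4 and 107 at 6 h, in induced plants. Its not induced plants had 51.2, 44.8 and 32.3 at 12 h, against 74.3, 334 and 72.0 at 6 h, and the same array, not induced 6 h replicate 2, stood far above the others. Without that array the differences were 2.5 for AT3G02480 and 2.06 for AT2G41190, and both were still called (limma, adjusted p = 0.0453 and 0.0093). MGL, annotated as methionine gamma-lyase, an enzyme that breaks down methionine, had 128, 117 and 114 against 79.7, 89.8 and 84.3 in induced plants, and 61.5, 62.5 and 43.8 against 98.9, 130 and 78.9 in not induced plants. AT1G62510 was lower at 12 h in both, by less in induced plants (log2 changes -0.60 and -1.89). scpl48 differed too, with log2 changes of 0.82 in induced and -0.03 in not induced plants (limma, adjusted p = 0.0261). Leaving out 1 of the 12 arrays ended the call in 5 fits for AT4G35110, 6 for MGL, 7 for AT3G02480, 8 for AT2G41190 and 11 for AT1G62510.

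In the other direction, PRX71 had 251, 281 and 279 at 12 h, against 220, 273 and 198 at 6 h, in not induced plants, while the induced plants fell as given above. The changes differed by -1.49 ± 0.30 (log2, SE, limma, adjusted p = 0.0474). AT1G51830 had 14.4, 16.0 and 20.7 against 34.3, 44.9 and 31.3 in induced plants, and 56.7, 55.2 and 60.8 against 45.5, 50.8 and 54.2 in not induced plants (difference -1.31). AT4G38710 and AT5G10920 differed by -0.81 and -0.71. For these 4 genes 9 to 11 of 12 fits without 1 array lost the call.

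Of 5 genes of abscisic acid, drought and cold, which encode hydrophilic proteins that protect cells from drying, 0 were called in induced plants by limma, 2 had an unadjusted p under 0.05, and the median was -0.24. In not induced plants 4 of the 5 fell, where 335 of all 22746 probe sets fell, and the median of the 5 was -1.34. COR15A had 3705, 1244 and 1584 at 12 h, against 2789, 4145 and 3834 at 6 h, in induced plants, with overlap. In not induced plants it had 1202, 1226 and 535 at 12 h, against 4164, 4501 and 4715 at 6 h. Without induced 12 h replicate 1, COR15A was called in induced plants (log2 change -1.33, limma, adjusted p = 0.0171). COR15B had 1001, 921 and 817 against 685, 937 and 992 in induced plants, and 428, 330 and 114 against 647, 842 and 716 in not induced plants. The difference between induced and not induced plants was not called for any of the 5 (COR15A, adjusted p = 0.224 in limma; COR15B, 0.148).

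**Figure D5:**
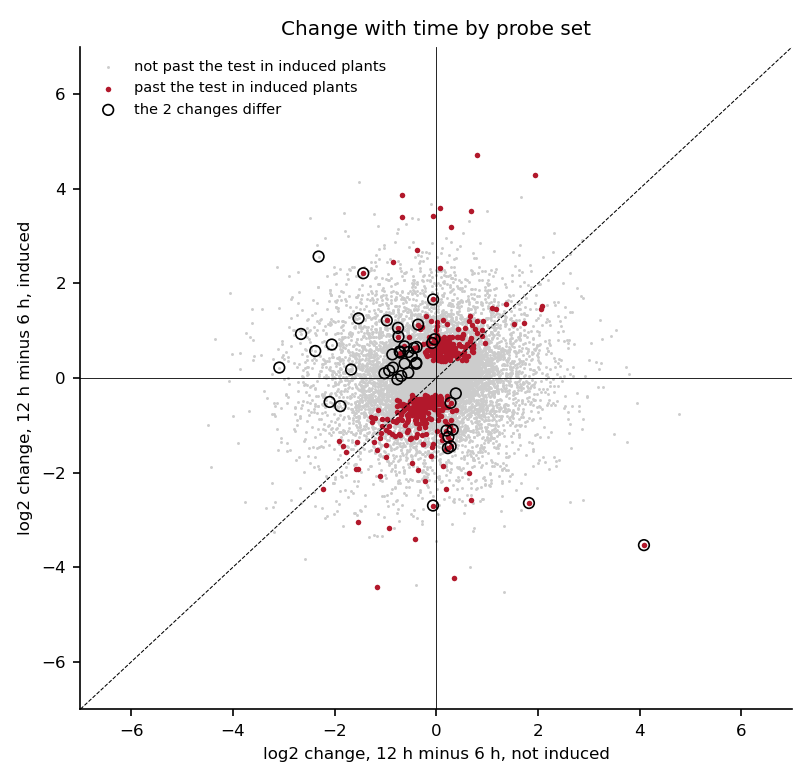
Log2 change, 12 h minus 6 h, in induced plants (y axis) and not induced plants (x axis) for 22746 probe sets, with the 431 called in induced plants in red and the 44 whose changes differ circled; the dashed line marks equal change. Of the 44 circled probe sets, 31 were positive in induced and negative in not induced plants.

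By limma over 18 arrays, 29 of 35 gene lists and 28 of 37 families held no call between 12 h and 6 h in induced plants. Most are short, and over all probe sets 1.89% were called and 3328 of 22746 had an unadjusted p under 0.05, so the absence of a call in a short list is not a result about its genes. The list of photosynthesis genes matched 8 of 46 entries, and none of the 8 was called (median log2 change -0.02), with 0 at an unadjusted p under 0.05. None of the 69 chloroplast genome probe sets was called (median -0.10), with 2 at an unadjusted p under 0.05. The same held for 18 expansin genes, which loosen the cell wall (median 0.05, 3 unadjusted), 47 UDP-glycosyltransferase genes (-0.18, 7 unadjusted) and 26 cytochrome P450 genes (0.32, 5 unadjusted). It also held for 10 auxin genes (0.15, 3 unadjusted) and 42 probe sets of AGAMOUS-like transcription factors (-0.07, 5 unadjusted). The 4 stable reference genes had a median of 0.01, with 0 at an unadjusted p under 0.05. These medians stand beside a median of 0.03 over all probe sets.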

How the data were processed

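Transcripts were measured on Affymetrix ATH1 arrays. The deposited intensity values are MAS5 signals, for which the submitters' processing notes name GCOS; neither a version nor the scaling target is stated in what was used here. The authors' scaling gave every array the same trimmed mean (2% left out at each end).

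Log2 signals of 22746 probe sets were fitted in limma 3.58.1 (R 4.3.3), 1 mean per group over 18 arrays, and moderated by empirical Bayes with a trend on intensity (12 residual degrees of freedom). Benjamini-Hochberg adjustment ran over all probe sets of a contrast (threshold 0.05). Nothing in the labels shows that replicates came from separate cultures, and p-values then reflect the spread between these samples alone, which may be technical. A fold against a group at background on all 3 arrays is a lower bound, from mean log2 signals and the background level. The fit was tested on simulated data.

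Of the probe sets, 13513 had 1 gene, 503 several and 8730 none in the annotation provided. Genes were named by a rule: the 15 largest rises and 15 largest falls (1 gene, at least 2-fold, separated groups, brighter group above background), the 8 largest differences each way, up to 4 called members of each list, and all matched sperm and core clock genes. Called genes with a name, 4 late cell cycle genes, 5 abscisic acid genes, AT2G23120, and RCA, PYK10 and JAL22 were added after their values were seen. The members, the 35 lists and the rule were chosen with earlier results of these data known. Families were taken from gene symbols after the annotation was seen, and a planned search of promoters was not run. Python 3.11.15, pandas 2.3.3 and matplotlib 3.10.9 were used for tables and figures.

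Alternatives were quantile normalization, 1 median, a filter at the 40th percentile of mean signal, signals raised to background, an offset of 16, no intensity trend, array weights, the replicate block, a fit on the compared arrays alone and leaving out each array. Hybridisation controls and the actin ratio as covariates were chosen after seeing the data.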

Additional observations from a re-analysis of the deposited data

Results flagged for a closer look

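For the genes named here the change between 12 h and 6 h differed between induced and not induced plants by a direct test of the difference (limma, adjusted p under 0.05). The difference, induced minus not induced on the log2 scale, was 3.31 for AT3G02480, 2.79 for AT2G41190, 2.19 for AT2G37870 and 1.81 for AT4G33550. It was 1.62 for AT3G53980, 1.36 for MGL, 1.3 for AT4G35110 and 1.29 for AT1G62510. It was -1.49 for AT5G64120 (PRX71), -1.31 for AT1G51830, -0.81 for AT4G38710 and -0.71 for AT5G10920. It was 0.85 for scpl48 and 1.24 for AT2G23120, both chosen after their values were seen. AT2G37870, AT4G33550 and AT3G53980 kept their call in all 12 fits that left out 1 array. Without the intensity trend, 11 of the 12 differences followed through the alternatives lost their call. Among them were AT2G37870 and AT3G53980 (limma, adjusted p = 0.0748 and 0.0587), while AT4G33550 kept its call. The differences of scpl48 and AT2G23120 were not followed through the alternatives. For AT3G02480 and AT2G41190, not induced 6 h replicate 2 was far above the other 2 arrays of its group, and without it the differences were 2.5 and 2.06.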

How the results depend on the processing

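The 431 calls in induced plants became 159 without an intensity trend, 654 with array weights and 96 with the actin ratio as a covariate, of which 89 were among the 431. The 44 calls of the difference became 82 with the filter, 147 with signals raised to background, 76 with the offset, 6 without the trend, 101 with array weights and 23 with the actin ratio. The 663 calls in not induced plants became 239 without the trend, 222 on their own arrays, 196 with hybridisation controls and 402 with the actin ratio. Leaving out 1 array gave 149 to 410 calls in induced plants, 20 to 65 for the difference and 231 to 572 in not induced plants. With the replicate block there were 365, 35 and 574 calls. Between 12 h and 6 h, the deviations of arrays with replicate numbers 1, 2 and 3 correlated at r = -0.129, -0.145 and -0.137 in induced plants and at 0.066, 0.196 and 0.119 in not induced plants. Between different numbers, r ran from -0.075 to 0.198 in induced plants and from -0.185 to 0.0275 in not induced plants. As not every same-number correlation was over 0.1, the numbers were taken to pair neither. This cut does not exclude pairing in not induced plants. COR15B, not called under any alternative, changed sign to -0.021 with array weights, -0.015 with hybridisation controls and -0.11 with the actin ratio, and lay between -0.084 and 0.18 when 1 array was left out. TET12, at background, lay between -1.91 and 0.070 when 1 array was left out; the cause was not tested. Over 85 gene results, 384 alternative values lost a call, 9 gained a call and 1108 stayed on the same side of the threshold. Changes of probe sets at background are limited by their signal.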
